A study of Homo sapiens with 30 samples.

Results

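Replication-dependent histone genes encode the bulk of the histones that package newly made DNA. They were chosen by symbol, as the linker histone genes H1-1 to H1-5 and every gene named H2AC, H2BC, H3C or H4C with a number. The rule found 65 of the 60617 genes listed in each library: 5 linker histone genes, 16 H2A genes, 17 H2B genes, 13 H3 genes and 14 H4 genes. On the GRCh38 assembly, 54 lie on chromosome 6 and 11 on chromosome 1. The rule itself uses no expression value, though the set was chosen with earlier results of these data known.

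The cells were HCT116 and SW480, established human colorectal cancer cell lines. Each line received 1 of 5 siRNAs at 10 nM by lipid transfection, and RNA was collected 48 h later. The siRNAs were siBRD8-6 and siBRD8-36 against BRD8, siTIP60-2 and siTIP60-11 against TIP60, the product of the gene listed as KAT5, and siControl as the reference, with 3 replicates in each of the 10 groups. The series asked how depletion of either protein alters gene expression in these cells. Every group, the control included, was transfected, so no group shows untreated cells, and each line is a single tumour-derived culture.

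Most mRNAs end in a poly(A) tail, but the typical mRNA of these genes ends just after a short stem-loop, which is bound by SLBP. Their transcription is tied to S phase by NPAT at histone locus bodies, and the mRNAs are degraded when DNA synthesis stops. Several of the genes also give longer, polyadenylated transcripts that extend past the stem-loop, mainly in differentiated or arrested cells. BRD8, a bromodomain protein, and TIP60, a lysine acetyltransferase, are subunits of the same chromatin complex, which acetylates H4 and H2A and exchanges H2A.Z.

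An HCT116 library held 13.4 to 18.6 M counts, with a median of 16.7, and an SW480 library 7.07 to 11.7 M, with a median of 8.92. The controls of SW480 were the shallowest, at 7.07 to 7.69 M. The histone genes took 521 to 2310 counts of an HCT116 library (median 1392) and 1948 to 3897 counts of an SW480 library (median 2774), so most of them rest on few reads. As a check of the labels, both target genes were low where targeted. BRD8 stood at 20.8% of control with siBRD8-6 and 14.2% with siBRD8-36 in HCT116, and at 24.5% and 21.2% in SW480. KAT5 stood at 7.36% with siTIP60-2 and 9.91% with siTIP60-11 in HCT116, and at 8.0% and 13.6% in SW480. With siBRD8-36, KAT5 itself stood at 80.5% of control in HCT116 and at 75.0% in SW480. Of 10 colorectal epithelial markers, 5 had a median of at least 1 TPM in HCT116 and 6 in SW480. KRT20, CDX1, LGALS4 and GPA33 were below that in both lines. Among markers of other cell types, PTPRC had a median of 0 TPM in both lines, CDH5 was at 0 in all 30 libraries, and COL1A1, CD68 and LYZ were detected. These lists moved with the depletions. In HCT116 the 10 epithelial markers summed to 3856 to 5078 TPM in depleted libraries, against 2503 to 2558 TPM in control libraries. The 7 fibroblast markers, mostly COL1A1, summed to 28.2 to 29.7 TPM with siBRD8-36 and 11.1 to 17.1 TPM with the other depleting siRNAs, against 7.28 to 11.7 TPM in control. The 6 leukocyte markers summed to 22.1 to 28.7 TPM with siTIP60-2 and 3.42 to 11.6 TPM with the others, against 6.55 to 9.67 TPM in control. In SW480 the epithelial sum was 2938 to 4504 TPM in depleted libraries, against 2644 to 2771 TPM in control, the fibroblast sum 2.57 to 10.2 TPM, against 3.3 to 4.09 TPM, and the leukocyte sum 1.27 to 6.84 TPM, against 0.57 to 1.88 TPM. The part of these markers in the histone results was not tested.

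Many of these genes are near copies, and the deposited values divide a read that matches several genes between them. In 34 of the 65 genes some library held an expected count that was not whole, by more than 0.005. Genes with such a value held 49.8% to 91.8% of the histone counts of an HCT116 library and 32.8% to 85.5% of those of an SW480 library. Levels of single copies are therefore less certain than the counts alone would give. The 4 genes H2AC1, H2BC1, H4C6 and H4C7 were at 0 in all 30 libraries.

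The stem-loop is shown for 7 genes on which the results turn, because the transcript models differ in what follows it. A stem-loop of 16 bases was found in GENCODE 29 transcripts of 28 of the 63 genes with a model there, and capitals mark it below, in DNA letters with 5 flanking bases on each side.
H2AC6: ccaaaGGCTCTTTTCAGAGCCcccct
H2AC18: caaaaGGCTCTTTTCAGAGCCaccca
H2BC21: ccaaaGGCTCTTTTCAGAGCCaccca
H2BC5: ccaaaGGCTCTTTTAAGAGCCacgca
H2BC4: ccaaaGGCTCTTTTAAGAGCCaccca
H3C8: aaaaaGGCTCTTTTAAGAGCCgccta
H4C11: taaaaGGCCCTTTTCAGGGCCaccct

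The form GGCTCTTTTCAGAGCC occurred in 15 genes, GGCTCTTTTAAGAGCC in 4 and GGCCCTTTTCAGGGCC, the form of H4C11, in 4. The models of H2AC6 and H2BC21 ran 1128 and 1729 bases past the stem-loop, that of H2AC18 ran 35 bases, and that of H4C11 ended 6 bases after it. H2BC5 had both a model ending 39 bases past the stem-loop and one with 384 bases after the stop codon and no stem-loop. In all, 26 genes had a model with at least 100 bases after the stop codon. For 32 genes, H1-2 and H2BC12 among them, every model was coding sequence only, so nothing about their 3′ ends can be read from these models.

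Promoters are shown for 6 genes whose levels changed. Each is the 140 bases before the RefSeq start on GRCh38.p14, read along the gene's strand. Capitals mark TATAAA (the TATA box), CCAAT (a binding motif of NF-Y) and the octamer ATTTGCAT (a binding motif of OCT1), searched on both strands, so that ATTGG and ATGCAAAT are the reverse forms; no matches overlapped.
H1-2: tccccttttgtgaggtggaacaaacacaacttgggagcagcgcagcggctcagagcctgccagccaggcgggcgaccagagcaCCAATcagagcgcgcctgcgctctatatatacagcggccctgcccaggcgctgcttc
H2AC6: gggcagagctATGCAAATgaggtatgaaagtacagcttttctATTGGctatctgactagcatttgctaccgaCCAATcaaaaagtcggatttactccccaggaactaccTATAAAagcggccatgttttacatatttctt
H2BC5: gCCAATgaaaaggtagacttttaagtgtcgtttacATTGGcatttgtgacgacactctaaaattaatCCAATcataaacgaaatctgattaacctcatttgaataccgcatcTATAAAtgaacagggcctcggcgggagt
H2BC12: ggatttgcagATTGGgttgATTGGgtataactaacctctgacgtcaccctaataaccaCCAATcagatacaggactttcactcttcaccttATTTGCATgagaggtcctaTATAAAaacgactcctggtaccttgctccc
H3C2: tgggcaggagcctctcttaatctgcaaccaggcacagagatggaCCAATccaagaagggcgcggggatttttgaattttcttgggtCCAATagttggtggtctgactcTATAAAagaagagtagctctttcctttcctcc
H4C11: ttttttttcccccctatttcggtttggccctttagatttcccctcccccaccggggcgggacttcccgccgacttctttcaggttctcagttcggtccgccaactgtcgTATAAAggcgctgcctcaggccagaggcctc

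These windows lie at chr6:26056471-26056610 (minus strand) for H1-2, chr6:26124032-26124171 (plus) for H2AC6, chr6:26157981-26158120 (plus) for H2BC5, chr6:27146856-27146995 (minus) for H2BC12, chr6:26032100-26032239 (minus) for H3C2 and chr6:27823952-27824091 (plus) for H4C11. RefSeq gave 64 promoter windows of 300 bases, from 250 before to 50 after the start, for 60 of the 65 genes. TATAAA was in 44 of them (68.8%), against 11.5% of all 35116 windows. CCAAT was in 55 (85.9%), against 34.6% of all windows. The octamer was in 27 (42.2%), against 1.77% of all windows. By family, the octamer was in 15 of 19 H2B windows, 11 of 15 H2A windows and 1 of 13 H3 windows, and in no H1 or H4 window. The H3 window with the octamer, 1 of those of H3C4, is the same stretch as the H2AC7 window, so it is counted under both families. Windows of neighbouring H2A and H2B genes on opposite strands also overlap. A single octamer can then be counted under H2A and H2B, as for H2AC6 with H2BC4 and H2AC11 with H2BC11. H2BC5 and H2BC12 are each counted with nearly coincident windows. The counts of windows for all motifs are thus not independent. CCAAT was in every H1, H2A, H2B and H3 window but in 3 of 12 H4 windows. The promoters of H2BC12 and H2BC5, both called higher in every comparison below, differ within the 140 bases shown: that of H2BC12 holds the octamer, that of H2BC5 does not.

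In control cells the genes were far apart in level, and the lines differed. On the TPM scale, a level per transcript length, H2BC12 led in HCT116 at 26.3 ± 2.74 TPM (SD, n = 3), followed by H1-2 at 17.1 ± 2.99 TPM and H2BC5 at 6.28 ± 0.18 TPM. H2AC18 and H2AC6 followed at 3.797 ± 0.945 and 3.52 ± 0.286 TPM, which did not differ beyond their spread. Only 14 of the 65 genes averaged at least 1 TPM in the HCT116 control, and 2 at least 10 TPM.

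In the SW480 control, H1-2 led at 66.3 ± 3.76 TPM. The next 4 genes lay close together: H2AC6 at 49.4 ± 4.67, H2AC18 at 46.7 ± 1.26, H4C11 at 45.5 ± 1.18 and H2BC12 at 42.8 ± 2.45 TPM. There, 51 genes averaged at least 1 TPM and 11 at least 10 TPM. The summed level of all 65 genes was 34.3 ± 4.35 CPM (counts per M counts, scaled by TMM between libraries of the same line) in HCT116 control cells, against 292 ± 1.4 CPM in SW480 control cells (SD, n = 3 each). The lines were not scaled to each other for these sums. Of the 42 genes tested over both lines, 38 were lower in HCT116 control cells and 0 were higher (edgeR adjusted p under 0.05). Over all genes, 37.0% were called lower. The 42 passed the expression filter of edgeR over all 30 libraries, whereas 19 of the 65 passed within HCT116 alone and 38 within SW480 alone. Entry thus leaned on SW480 libraries, where the genes were high, so this count describes the tested genes only. Cell line, depth and anything else that differed between the lines' libraries cannot be told apart.

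**Figure D1:**
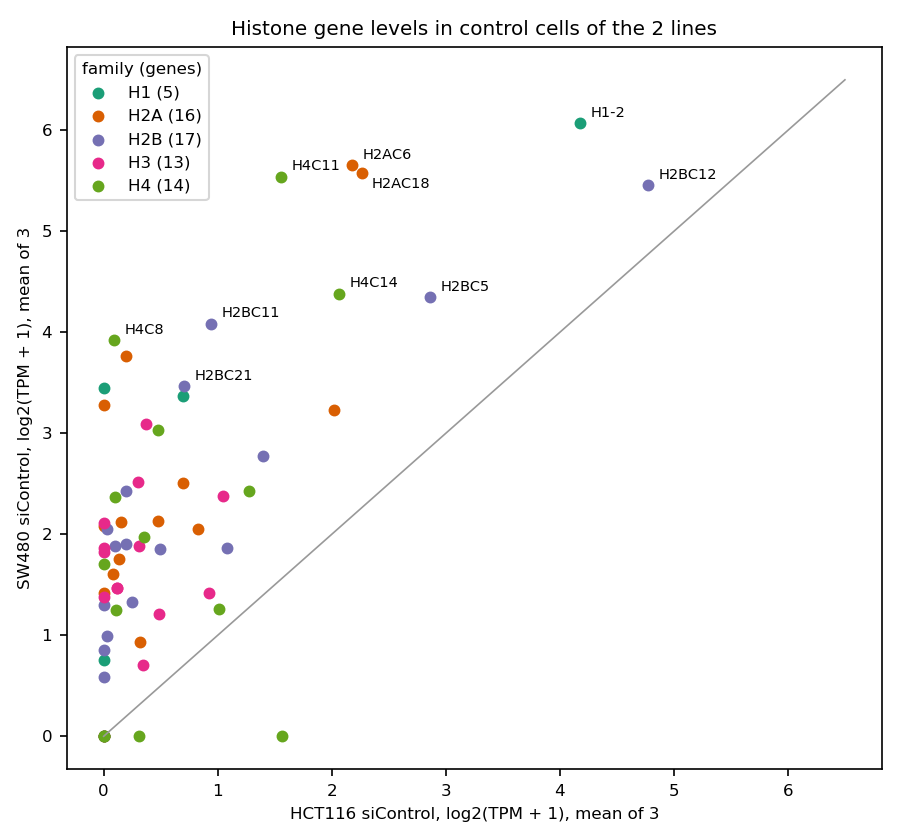
Each point is 1 histone gene, with its mean level over 3 siControl libraries of HCT116 on the x axis and of SW480 on the y axis, both as log2(TPM + 1), coloured by family; the line marks equal levels. Nearly all points lie above the line, and H2BC12, at 26.3 TPM in HCT116 and 42.8 TPM in SW480, lies near it.

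A gene entered the test where its counts passed edgeR's expression filter in that line: 19 of the 65 did in HCT116 and 38 in SW480. In HCT116, 10 of the 19 did not reach the filter's CPM limit of 0.598 throughout the control group, and 4 of the 19 reached it throughout no group but in scattered libraries. In SW480, with a limit of 1.12 CPM, 3 of the 38 (H3C2, H4C4 and H4C9) reached it throughout the control group only, 9 did not reach it throughout that group, and 5 reached it throughout no group. Entry of a gene through the group where it was high favours a difference, so counts over the tested genes are a description of them and not of all 65. A call needed the same sign with both siRNAs of a target, and the larger of their p-values had to stay under 0.05 by edgeR's quasi-likelihood test, Benjamini-Hochberg adjusted over all genes tested. The log2 fold changes below are means of the 2 siRNAs against control with their SE. All 4 siRNAs of a line share that line's 3 control libraries.

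In HCT116, BRD8 depletion raised 11 of the 19 tested genes and lowered 0, with a median log2 fold change of 1.78. Over all genes tested, 12.2% were called higher and 12.2% lower, and the median was -0.02. The genes that rose were H1-2, H2AC6, H2AC18, H2BC4, H2BC5, H2BC6, H2BC11, H2BC12, H2BC15, H2BC18 and H3C6: 7 of 8 H2B genes tested, 2 of 4 H2A genes, the only H1 gene, 1 of 2 H3 genes and 0 of 4 H4 genes. Of the H2B genes, H2BC4, H2BC6, H2BC11, H2BC15, H2BC18 and H2BC21 did not reach the filter's limit throughout the control group. Their entry thus leaned on depleted libraries, and the counts and the median describe the tested genes only. All 6 siBRD8 libraries lay above all 3 control libraries for 12 of the 19 genes, against 14.6% of all genes, and below them for 0. In bulk RNA, a change in the share of cells of a kind, such as cells in S phase, and a change in RNA per cell cannot be told apart.

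TIP60 depletion in HCT116 raised 4 of the 19 genes, H2AC6, H2BC5, H2BC6 and H2BC12, and lowered 0, with a median of 0.85. Of all genes, 13.7% were called higher and 14.1% lower, with a median of -0.03, so the share of histone genes called, 4 of 19, is closer to that background than with BRD8. All 6 siTIP60 libraries lay above the controls for 6 genes, the called ones with H2BC11 and H3C10; 16.6% of all genes did so.

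Summed over the 65 genes, HCT116 libraries averaged 127 ± 6.71 CPM with siBRD8-6, 122 ± 0.675 CPM with siBRD8-36, 60.8 ± 2.36 CPM with siTIP60-2 and 85.1 ± 2.92 CPM with siTIP60-11, against 34.3 ± 4.35 CPM in the control (SD, n = 3 each). The ratio to control was 3.698 with siBRD8-6, 3.57 with siBRD8-36, 1.77 with siTIP60-2 and 2.48 with siTIP60-11. No library of any depleted group overlapped the control libraries in this sum. The 5 genes known to give polyadenylated transcripts, H1-2, H2AC6, H2BC5, H2BC12 and H2BC21, made most of it, with sums of 89.6 ± 8.57 CPM with siBRD8-6, 90.8 ± 0.805 CPM with siBRD8-36, 43.3 ± 2.12 CPM with siTIP60-2 and 58.2 ± 2.64 CPM with siTIP60-11, against 20.3 ± 2.69 CPM in the control. The sum of the other 60 genes was 37.1 ± 1.87 CPM with siBRD8-6, 31.5 ± 0.691 CPM with siBRD8-36, 17.5 ± 0.829 CPM with siTIP60-2 and 26.9 ± 0.377 CPM with siTIP60-11, against 13.9 ± 1.83 CPM in the control. By family, the ratio to control was highest for H2B, at 4.37 with siBRD8-6, 5.58 with siBRD8-36, 2.23 with siTIP60-2 and 2.58 with siTIP60-11, and for H2A, at 4.73 with siBRD8-6, 3.82 with siBRD8-36, 2.25 with siTIP60-2 and 2.996 with siTIP60-11. For H4 it was 1.83 with siBRD8-6, 1.0 with siBRD8-36, 1.18 with siTIP60-2 and 1.82 with siTIP60-11. Whether poly(A) RNA was selected is not given in the sources used here, so how fully mRNAs without a tail were counted is unknown.

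**Figure D2:**
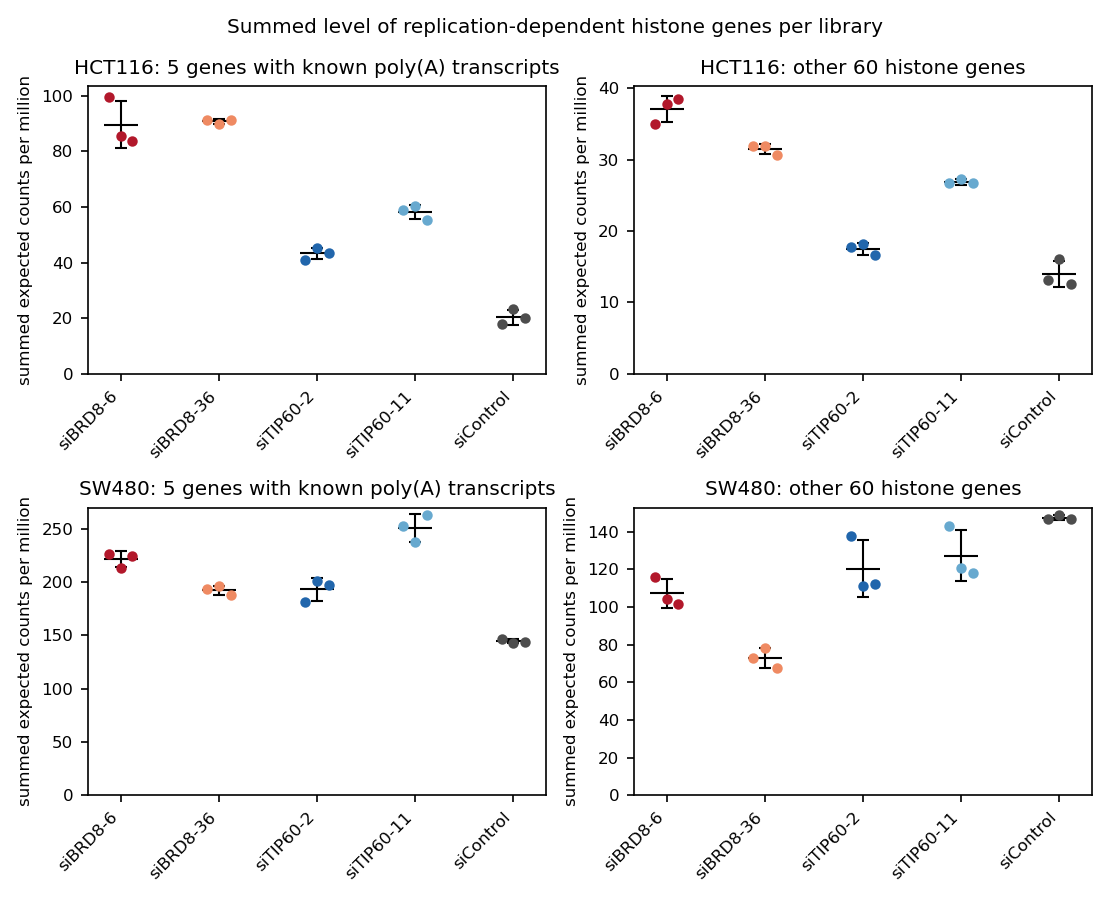
Summed CPM of the 5 histone genes known to give polyadenylated transcripts (left) and of the other 60 (right) in HCT116 (top) and SW480 (bottom); points are libraries, bars the mean of 3 and whiskers the SD. Both sums are above control in every depleted group of HCT116, while in SW480 the left sum is above control and the right sum below it.

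H2BC5, an H2B gene, stood at 18.9, 15.7 and 16 CPM with siBRD8-6 and 22.1, 20.2 and 22 CPM with siBRD8-36. With TIP60 depletion it stood at 12.7, 13.6 and 14.2 CPM with siTIP60-2 and 12.9, 12.5 and 11.4 CPM with siTIP60-11, against 2.78, 3.24 and 2.87 CPM in the control libraries. Every depleted library was above every control library, by 2.69 ± 0.10 on the log2 scale with BRD8 depletion (edgeR adjusted p = 1.38e-11) and by 2.13 ± 0.11 with TIP60 depletion (edgeR adjusted p = 1.65e-10). H2BC12, the H2B gene with the highest control level here, reached 27.3, 25.3 and 22.7 CPM with siBRD8-6 and 33.2, 33.7 and 33 CPM with siBRD8-36. It reached 7.71, 9.58 and 10.8 CPM with siTIP60-2 and 13, 14.4 and 11.7 CPM with siTIP60-11, against 5.29, 5.95 and 6.18 CPM in the control libraries. Again no library overlapped the controls; the change was 2.32 ± 0.11, edgeR adjusted p = 1.52e-10 with BRD8 depletion and less with TIP60 depletion, 0.93 ± 0.11, edgeR adjusted p = 0.000324. H2AC6, an H2A gene, had 25.6, 22 and 22.9 CPM with siBRD8-6 and 17.3, 17.1 and 16.8 CPM with siBRD8-36. It had 11.9, 12.6 and 9.78 CPM with siTIP60-2 and 13.2, 13 and 11.5 CPM with siTIP60-11, against 3.76, 4.07 and 3.37 CPM in the control libraries. The control libraries were the lowest and those of siBRD8-6 the highest, with changes of 2.43 ± 0.11, edgeR adjusted p = 1.06e-10 for BRD8 and 1.69 ± 0.11, edgeR adjusted p = 6.21e-09 for TIP60.

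The linker histone gene H1-2 was at 26.3, 21.6 and 21.1 CPM with siBRD8-6 and 16.8, 16.3 and 17.7 CPM with siBRD8-36. Values were 8.18, 8.76 and 7.71 CPM with siTIP60-2 and 17.6, 18.6 and 18.5 CPM with siTIP60-11, against 5.46, 8.96 and 6.303 CPM in the control libraries. Both BRD8 siRNAs lay above the control libraries (1.54 ± 0.12, edgeR adjusted p = 4.04e-07), but siTIP60-2 overlapped them while siTIP60-11 did not, and H1-2 was not called for TIP60 (0.85 ± 0.12, edgeR adjusted p = 0.198). H2AC18, an H2A gene of the chromosome 1 cluster, had 6.03, 5.58 and 3.28 CPM with siBRD8-6 and 7.04, 7.997 and 8.56 CPM with siBRD8-36. It had 1.35, 1.52 and 1.59 CPM with siTIP60-2 and 4.69, 4.85 and 4.22 CPM with siTIP60-11, against 0.982, 1.28 and 1.56 CPM in the control libraries. It rose with BRD8 depletion (2.30 ± 0.20, edgeR adjusted p = 1.71e-06), and with TIP60 depletion only siTIP60-11 stood clear of the control (1.04 ± 0.22, edgeR adjusted p = 0.737). H2AC11, another H2A gene, had 2.87, 3.36 and 3.58 CPM with siBRD8-6 and 1.301, 1.88 and 1.32 CPM with siBRD8-36. Its values were 1.35, 1.87 and 1.53 CPM with siTIP60-2 and 2.704, 3.34 and 2.83 CPM with siTIP60-11, against 1.42, 1.205 and 0.874 CPM in the control libraries. siBRD8-6 and siTIP60-11 gave about 3 CPM and lay above the control, while siBRD8-36 and siTIP60-2 overlapped it, and neither target was called (0.91 ± 0.21, edgeR adjusted p = 0.474 for BRD8 and 0.88 ± 0.21, edgeR adjusted p = 0.236 for TIP60).

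Among the remaining H2B genes, H2BC15 had 2.45, 2.76 and 2.99 CPM with siBRD8-6 and 4.02, 3.898 and 3.7 CPM with siBRD8-36. It had 1.24, 1.46 and 0.917 CPM with siTIP60-2 and 1.38, 0.945 and 1.38 CPM with siTIP60-11, against 1.31, 1.05 and 0.437 CPM in the control libraries. It rose with BRD8 depletion (1.78 ± 0.25, edgeR adjusted p = 0.00033) and overlapped the control with both TIP60 siRNAs. A model of this gene runs through neighbouring H2A loci, so part of its count may be shared. In the gene models, 15 of the histone genes overlap another gene, 8 of them on the same strand. H2BC5 and H2BC18 are among those 8, as H2BC15 is, so part of their counts may be shared too. H2BC6 overlaps a gene on the other strand only. The part of such overlaps in the changes was not tested. H2BC21 was low, at 1.25, 1.14 and 1.19 CPM with siBRD8-6 and 1.83, 2.55 and 1.903 CPM with siBRD8-36. It was at 0.589, 0.759 and 1.101 CPM with siTIP60-2 and 2.34, 1.76 and 2.21 CPM with siTIP60-11, against 0.546, 0.979 and 1.25 CPM in the control libraries. Only siBRD8-36 and siTIP60-11 lay wholly above the control libraries, and the gene was called for neither target. The H3 gene H3C6 had 4.003, 4.74 and 4.36 CPM with siBRD8-6 and 4.56, 3.63 and 3.44 CPM with siBRD8-36. It had 2.002, 1.99 and 0.978 CPM with siTIP60-2 and 2.46, 2.39 and 3.04 CPM with siTIP60-11, against 1.58, 1.73 and 1.498 CPM in the control libraries. All BRD8 libraries lay above the control (1.36 ± 0.20, edgeR adjusted p = 0.000177), whereas 1 of the siTIP60-2 libraries lay below it.

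H3C10, also an H3 gene, had 2.33, 3.54 and 2.57 CPM with siBRD8-6 and 1.12, 1.48 and 1.32 CPM with siBRD8-36. It had 1.35, 1.23 and 1.22 CPM with siTIP60-2 and 2.46, 1.64 and 1.94 CPM with siTIP60-11, against 0.982, 0.903 and 0.686 CPM in the control libraries. Every depleted library lay above every control library, but the weaker siRNA of each target missed the threshold (1.15 ± 0.23, edgeR adjusted p = 0.127 for BRD8 and 0.89 ± 0.23, edgeR adjusted p = 0.15 for TIP60). The H4 genes showed no called change in HCT116. H4C14 had 4.54, 2.82 and 1.43 CPM with siBRD8-6 and 0.71, 1.41 and 1.43 CPM with siBRD8-36. It had 1.06, 1.81 and 2.02 CPM with siTIP60-2 and 4.81, 1.701 and 2.01 CPM with siTIP60-11, against 2.73, 2.56 and 1.44 CPM in the control libraries. Replicates of a group differed several-fold, the siBRD8-36 libraries lay below the lowest control library, and the other depleted groups overlapped the control. H4C15, its near copy, had 2.21, 3.42 and 6.45 CPM with siBRD8-6 and 2.66, 1.61 and 1.43 CPM with siBRD8-36. That gene had 2.002, 2.39 and 1.41 CPM with siTIP60-2 and 1.44, 4.66 and 4.702 CPM with siTIP60-11, against 0.0546, 1.51 and 0.998 CPM in the control libraries. Here the siBRD8-6 libraries lay above the control and the other depleted groups overlapped it. H4C11 was at 0.478, 0.9 and 0 CPM with siBRD8-6 and 0.651, 0.941 and 0 CPM with siBRD8-36. It was at 0, 0.584 and 0.612 CPM with siTIP60-2 and 1.08, 0.441 and 0.968 CPM with siTIP60-11, against 0, 0.979 and 0.374 CPM in the control libraries, with 0 in some library of 4 of the 5 groups. Its expected counts mirrored those of H4C12: in the siBRD8-6 libraries they were 7.61, 15 and 0 for H4C11 and 7.39, 0 and 15 for H4C12.

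The other genes called in HCT116 were low. Over the 5 groups, group means ran from 0.203 to 2.11 CPM for H2BC6, from 0.206 to 1.91 CPM for H2BC11, from 0.476 to 2.503 CPM for H2BC4 and from 0.14 to 0.765 CPM for H2BC18. In H2BC6 the expected counts were 37.11, 39.2 and 30.3 with siBRD8-6 and 20.69, 13.18 and 18.53 with siBRD8-36. They were 14.31, 8.35 and 13.8 with siTIP60-2 and 10.44, 10.08 and 7.39 with siTIP60-11, against 2.17, 5.35 and 2.04 in the control. H2BC6 rose by 2.91 ± 0.38, edgeR adjusted p = 0.000215 with BRD8 depletion and by 1.70 ± 0.41, edgeR adjusted p = 0.0159 with TIP60 depletion; the TIP60 call was lost without siControl replicate 1 (1.39) or replicate 3 (1.48), and with limma on log2(TPM + 1), at 0.28. H2BC11 rose by 2.85 ± 0.32, edgeR adjusted p = 1.67e-05, H2BC4 by 1.78 ± 0.28, edgeR adjusted p = 0.000415 and H2BC18 by 2.31 ± 0.56, edgeR adjusted p = 0.00845, all with BRD8 depletion. The call of H2BC18 was lost with limma on log2(TPM + 1), at 0.50. H2BC8 and H4C8, named for their SW480 levels, stayed at or below 0.18 CPM in every HCT116 library and were not tested there. The other untested genes had group means of at most 18.1 counts in HCT116, the highest being H2AC19.

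**Figure D3:**
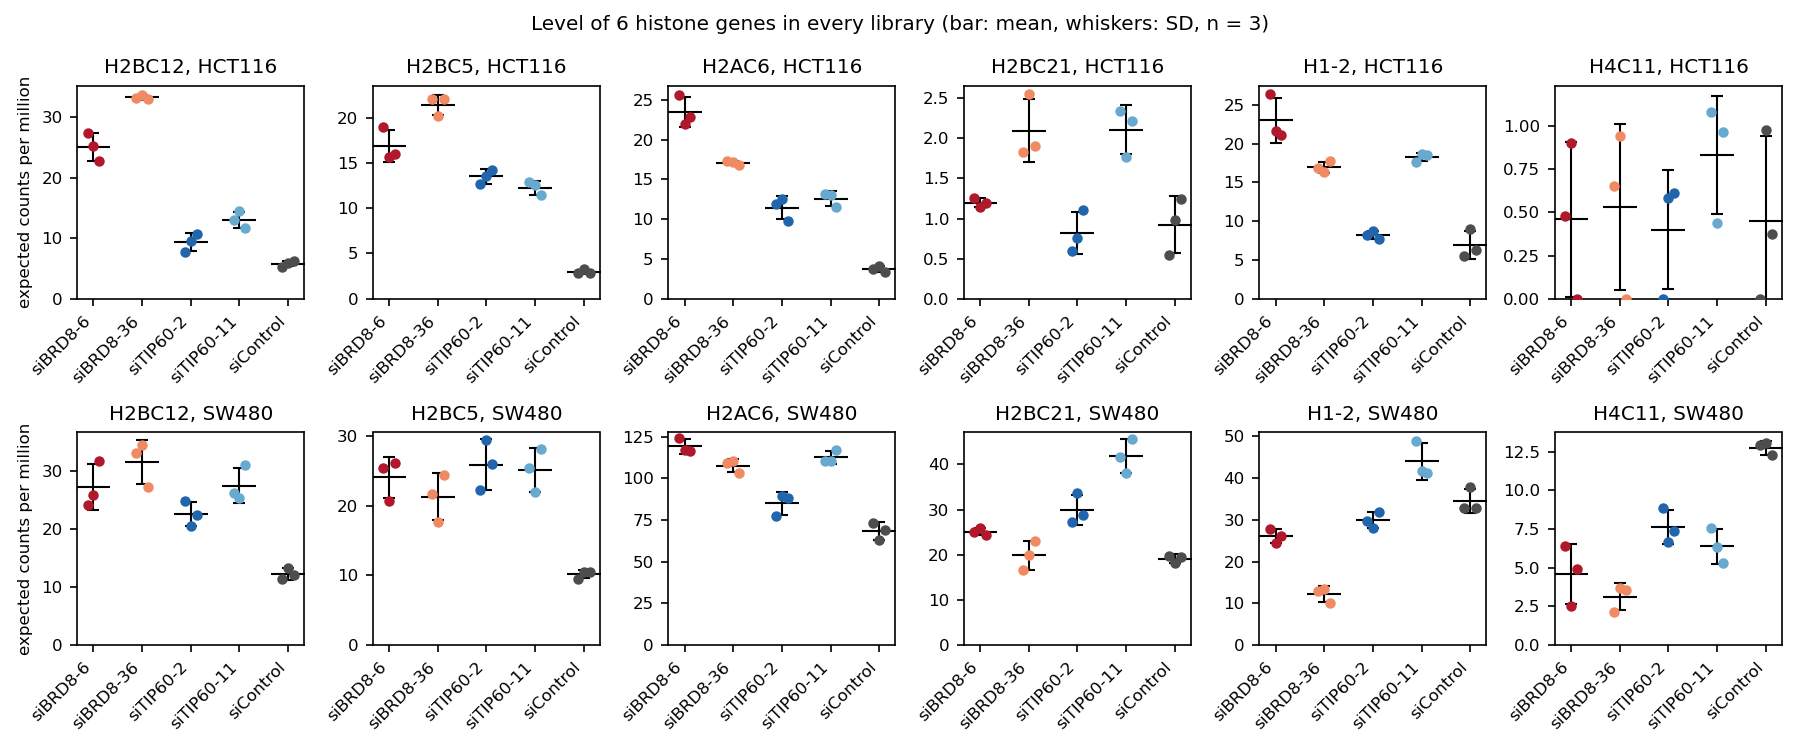
Level of 6 histone genes in every library of HCT116 (top) and SW480 (bottom), in expected counts as CPM; points are libraries, bars the mean of 3 and whiskers the SD. H2BC12, H2BC5 and H2AC6 are above control in all depleted groups of both lines, while H1-2 is above control in HCT116 with BRD8 depletion and below it in SW480.

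The siRNAs of a target did not act alike on these genes. In HCT116, siBRD8-6 and siBRD8-36 differed in 10 of the 19 genes, 6 higher and 4 lower with siBRD8-6, where 56.7% of all genes differed. H2AC11 (1.13 ± 0.22, edgeR adjusted p = 0.000184) and H3C10 (1.10 ± 0.23, edgeR adjusted p = 0.000429) were higher with siBRD8-6. H2BC21 (-0.80 ± 0.28, edgeR adjusted p = 0.0191) and H2AC18 (-0.66 ± 0.18, edgeR adjusted p = 0.00372) were lower with it. With the near copy H2AC19 added, H2AC18 averaged 6.04 ± 0.465 CPM with siBRD8-6 and 7.87 ± 0.769 CPM with siBRD8-36 (SD). Its share of that sum fell to 50.5% in a siBRD8-6 library, so the split of reads adds to this difference. siTIP60-2 was lower than siTIP60-11 in 7 genes and higher in 0, where 46.0% of all genes differed, with H2AC18 (-1.62 ± 0.22, edgeR adjusted p = 6.39e-06), H2BC21 (-1.36 ± 0.29, edgeR adjusted p = 0.00081) and H1-2 (-1.15 ± 0.13, edgeR adjusted p = 6.77e-07) furthest apart. Both shares of histone genes were below the share of all genes that differed.

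BRD8 depletion was set directly against TIP60 depletion, a contrast in which the controls cancel. In HCT116, 11 of the 19 genes were higher with BRD8 depletion and 1 lower, where 30% of all genes were higher and 31.7% lower. The 11 are the genes called higher against control with BRD8 depletion, from the same siBRD8 libraries, so the match is no separate support. H2BC11 stood at 0.277 to 0.481 CPM with TIP60 depletion, under the filter's limit of 0.598, and at 1.02 to 2.02 CPM with BRD8 depletion. Its entry thus leaned on siBRD8 libraries. H2BC4, H2BC6, H2BC15 and H2BC18 did not reach the limit throughout the control group either, so these counts describe the tested genes only. Differences ran from 0.56 ± 0.06, edgeR adjusted p = 3.8e-07 in H2BC5 to 2.02 ± 0.22, edgeR adjusted p = 2.1e-07 in H2BC11, and H2BC12 differed by 1.39 ± 0.07, edgeR adjusted p = 8.98e-12. H2AC20 was lower with BRD8 depletion, at -1.41 ± 0.37, edgeR adjusted p = 0.00254.

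In SW480 the same depletions gave a mixed picture. BRD8 depletion raised 3 of the 38 tested genes, H2AC6, H2BC5 and H2BC12, and lowered 17, with a median log2 fold change of -0.97. Of all genes, 12.9% were called higher and 14% lower, and the median lay within 0.01 of 0. The genes that fell were H1-2, H1-4, H1-5, H2AC8, H2AC13, H2AC20, H2BC6, H3C2, H3C3, H3C8, H3C14, H3C15, H4C2, H4C3, H4C4, H4C9 and H4C11. By family, that is 3 of 3 H1 genes, 3 of 8 H2A genes, 1 of 11 H2B genes, 5 of 7 H3 genes and 5 of 9 H4 genes. Of these, H3C2, H4C4 and H4C9 reached the filter's limit throughout the control group only. Their entry thus leaned on the group where they were high, and the counts and the median describe the tested genes only. H3C14 and H3C15 had identical values in all 30 libraries, so counts here and below hold the same measurement under both names. All 6 siBRD8 libraries lay below the controls for 19 of the 38 genes and above them for 3, against 18.3% and 16.9% of all genes.

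TIP60 depletion in SW480 raised 4 genes, H2AC6, H2BC5, H2BC12 and H2BC21, and lowered 2, H3C2 and H4C11, with a median of -0.24. The background was 11.5% higher and 12.1% lower with a median of 0.01, so 4 and 2 of 38 are not above it. All 6 siTIP60 libraries lay below the controls for 8 genes and above them for 5, against 17.7% and 16.7% of all genes. H2AC6, H2BC5 and H2BC12 were thus called higher in all 4 comparisons of a target and a line. That was 3 of the 18 tested in both lines, where 1.27% of all genes tested in both were called higher in all 4. H1-2 was called higher in 1 comparison and lower in another, and H2BC6 higher in 2 and lower in 1. Of the 39 tested in either line, 27 were called at least once, where 54.4% of all genes were.

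**Figure D4:**
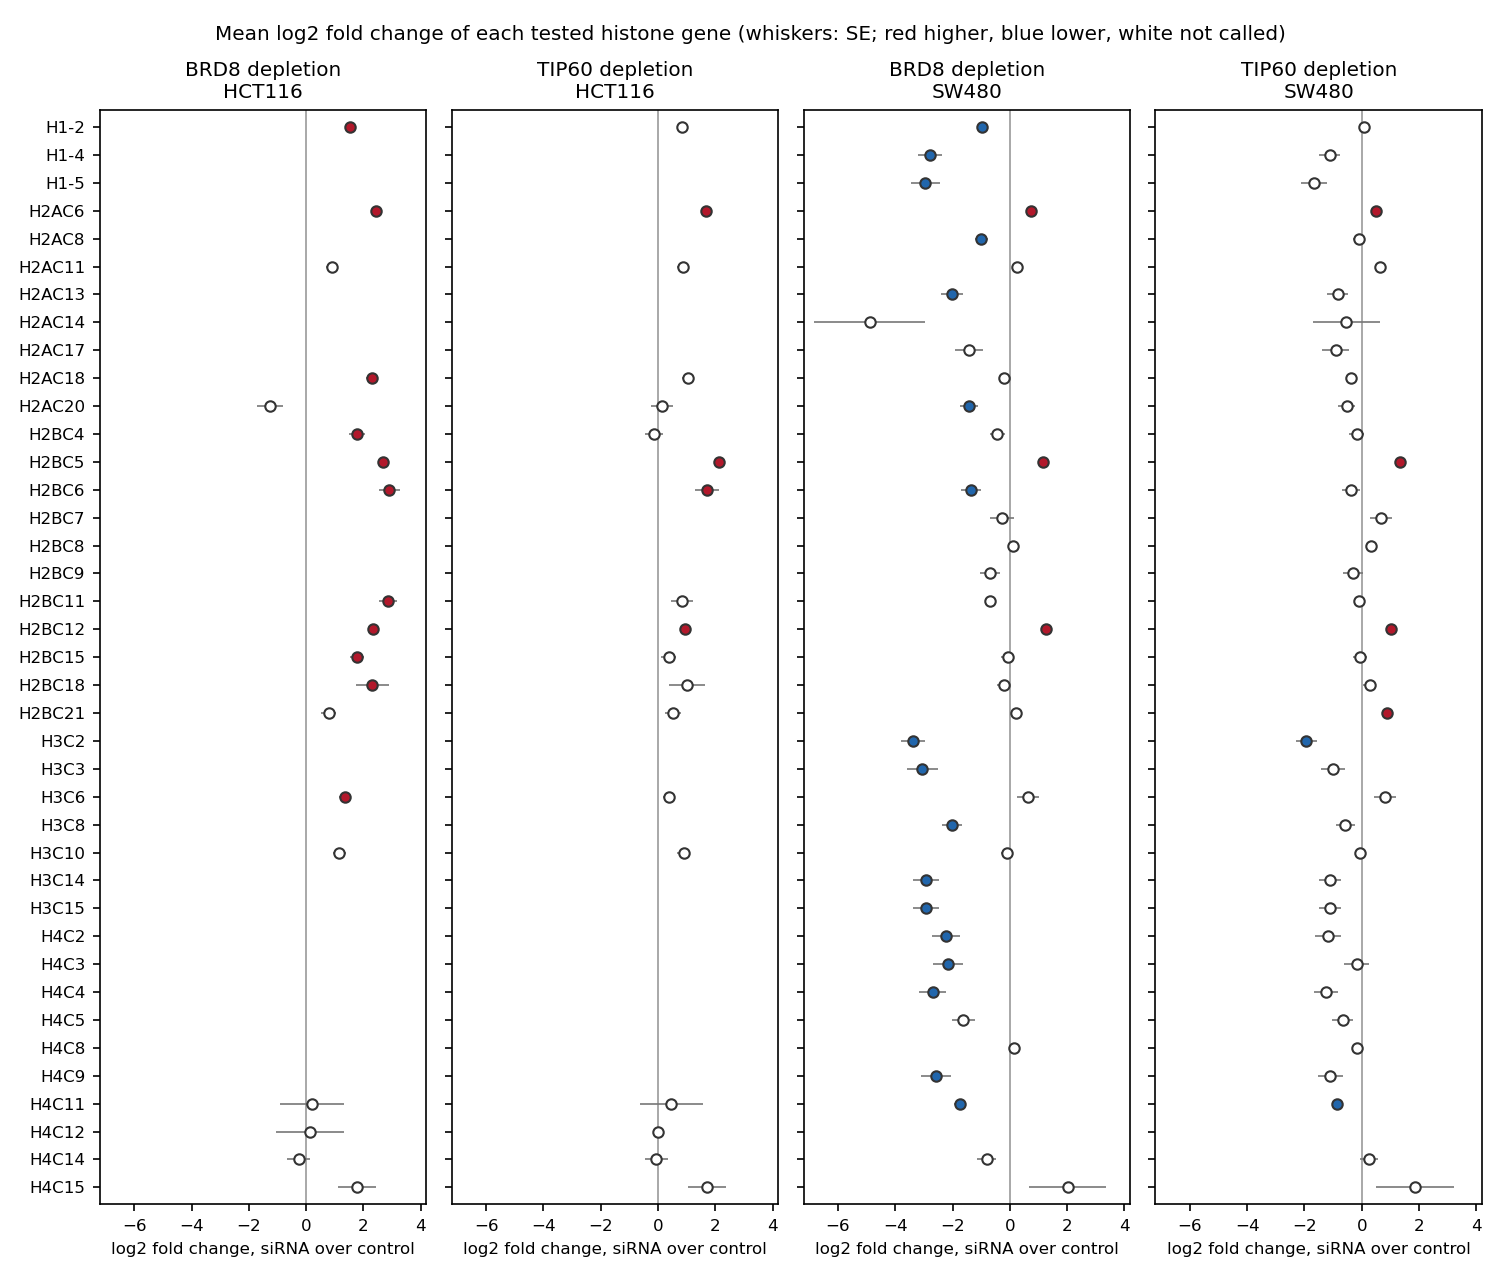
Log2 fold change over control, averaged over both siRNAs against a target, for each histone gene tested in either line, in 4 panels by target and line; whiskers are the SE (left out for 1 point, H4C12 with TIP60 depletion in HCT116, where it exceeds 2), red marks genes called higher, blue lower and white neither. Red points fill the HCT116 panel of BRD8 depletion from 1.36 to 2.91, and blue points fill most H1, H3 and H4 rows of the SW480 panel of BRD8 depletion.

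Summed over the 65 genes, SW480 libraries averaged 329 ± 12.7 CPM with siBRD8-6, 265 ± 9.54 CPM with siBRD8-36, 314 ± 4.92 CPM with siTIP60-2 and 378 ± 18.9 CPM with siTIP60-11, against 292 ± 1.4 CPM in the control (SD, n = 3 each), a ratio to control of 1.13 with siBRD8-6, 0.908 with siBRD8-36, 1.07 with siTIP60-2 and 1.296 with siTIP60-11. Within that sum, the total of 5 listed genes and the total of the other 60 moved apart, though single genes did not all follow. The 5 genes known to give polyadenylated transcripts summed to 222 ± 7.11 CPM with siBRD8-6, 193 ± 4.27 CPM with siBRD8-36, 193 ± 10.7 CPM with siTIP60-2 and 251 ± 12.9 CPM with siTIP60-11, against 145 ± 1.95 CPM in the control. The other 60 summed to 107 ± 7.78 CPM with siBRD8-6, 72.8 ± 5.32 CPM with siBRD8-36, 120.3 ± 15.1 CPM with siTIP60-2 and 127 ± 13.7 CPM with siTIP60-11, against 148 ± 1.09 CPM in the control. The ratio for the 5 was 1.53 with siBRD8-6, 1.33 with siBRD8-36, 1.34 with siTIP60-2 and 1.74 with siTIP60-11, and for the other 60 it was 0.727 with siBRD8-6, 0.493 with siBRD8-36, 0.815 with siTIP60-2 and 0.863 with siTIP60-11. Every depleted library was above the controls in the first sum and below them in the second. With BRD8 depletion 3 of the 5 were called higher and 1, H1-2, lower, while of the other 33 tested genes 0 were called higher and 16 lower, with a median of -1.41. Over the 25 tested genes with a model of at least 100 bases after the stop codon, BRD8 depletion raised 2 and lowered 7. Their median was -0.27. The list of 5 was drawn up with these data's earlier results known, so this split is a description and no test. How fully mRNAs without a poly(A) tail were counted is unknown here too.

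H2BC5 had 25.4, 20.6 and 26.1 CPM with siBRD8-6 and 21.7, 17.7 and 24.3 CPM with siBRD8-36 in SW480. It had 22.2, 29.4 and 26 CPM with siTIP60-2 and 25.4, 21.9 and 28.1 CPM with siTIP60-11, against 9.47, 10.5 and 10.5 CPM in the control libraries. All depleted libraries were above the control, by 1.16 ± 0.13, edgeR adjusted p = 2.77e-06 with BRD8 depletion and 1.33 ± 0.13, edgeR adjusted p = 1.47e-07 with TIP60 depletion. H2BC12 had 24.2, 25.8 and 31.8 CPM with siBRD8-6 and 33.1, 34.5 and 27.3 CPM with siBRD8-36. Its level was 24.9, 20.6 and 22.4 CPM with siTIP60-2 and 26.2, 25.3 and 31 CPM with siTIP60-11, against 11.4, 13.4 and 12.1 CPM in the control libraries. The groups did not overlap the control (1.26 ± 0.12, edgeR adjusted p = 7.31e-08 for BRD8 and 1.02 ± 0.12, edgeR adjusted p = 1.35e-05 for TIP60). H2AC6 had 125, 117 and 117 CPM with siBRD8-6 and 109, 111 and 103 CPM with siBRD8-36. It had 77.2, 89.8 and 88.1 CPM with siTIP60-2 and 111, 110.4 and 117 CPM with siTIP60-11, against 73.2, 63 and 69.2 CPM in the control libraries. The rise was smaller than in HCT116 but clear of the control (0.73 ± 0.06, edgeR adjusted p = 2.01e-08 for BRD8 and 0.52 ± 0.06, edgeR adjusted p = 0.00109 for TIP60).

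H2BC21 had 25, 25.9 and 24.4 CPM with siBRD8-6 and 16.6, 19.98 and 22.9 CPM with siBRD8-36. It had 27.2, 33.6 and 28.9 CPM with siTIP60-2 and 41.6, 38.2 and 45.6 CPM with siTIP60-11, against 19.8, 18.1 and 19.6 CPM in the control libraries. TIP60 depletion raised it (0.88 ± 0.10, edgeR adjusted p = 7.16e-05), most with siTIP60-11, whereas siBRD8-36 overlapped the control and it was not called for BRD8 (0.22). H1-2 had 27.8, 24.5 and 26 CPM with siBRD8-6 and 13, 13.5 and 9.97 CPM with siBRD8-36. It had 29.7, 28 and 31.8 CPM with siTIP60-2 and 48.9, 41.6 and 41.3 CPM with siTIP60-11, against 32.8, 37.8 and 32.9 CPM in the control libraries. Every siBRD8 library was below the control, at -0.96 ± 0.09, edgeR adjusted p = 0.00265, and siBRD8-36 gave the lowest values. The call ended with limma on log2(TPM + 1), at -0.66, where the median of all genes stood 0.23 higher. The TIP60 siRNAs moved H1-2 apart: siTIP60-2 lay below the control libraries and siTIP60-11 above them, and the mean was 0.07 ± 0.09. H4C11 had 6.37, 2.56 and 4.89 CPM with siBRD8-6 and 2.13, 3.66 and 3.59 CPM with siBRD8-36. It had 8.86, 6.65 and 7.38 CPM with siTIP60-2 and 7.55, 6.33 and 5.28 CPM with siTIP60-11, against 12.9, 13.1 and 12.3 CPM in the control libraries. All depleted libraries were below the control (-1.75 ± 0.19, edgeR adjusted p = 1.56e-05 for BRD8 and -0.87 ± 0.18, edgeR adjusted p = 0.0105 for TIP60). The part of a split of reads between H4C11 and H4C12, as seen in HCT116, was not tested here. The TIP60 call was lost without siTIP60-2 replicate 2 (-0.83) and with limma on log2(TPM + 1), at -0.65.

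H2AC18 had 26.2, 21.1 and 24.9 CPM with siBRD8-6 and 11.1, 16.8 and 11.9 CPM with siBRD8-36. It had 10.1, 11.5 and 9.698 CPM with siTIP60-2 and 18.4, 25.8 and 25.7 CPM with siTIP60-11, against 20.05, 21.6 and 19.6 CPM in the control libraries. siTIP60-2 and siBRD8-36 lay wholly below the control while the other siRNA of each target overlapped it, so the gene was not called for either target. Part of this rests on how reads were split with the near copy H2AC19. With H2AC19 added, siBRD8-36 gave 19.58, 16.76 and 11.87 CPM, which overlapped the control sums of 19.57 to 21.65 CPM. The sums with siTIP60-11 were 24.99, 25.84 and 25.73 CPM, all above the control. H2AC11 had 9.37, 8.79 and 9.36 CPM with siBRD8-6 and 5.43, 6.99 and 5.39 CPM with siBRD8-36. It had 8.86, 7.77 and 7.71 CPM with siTIP60-2 and 12.8, 10.3 and 10.5 CPM with siTIP60-11, against 6.87, 5.62 and 5.98 CPM in the control libraries. All siTIP60 libraries lay above the control, but the adjusted p missed the threshold (0.63 ± 0.14, edgeR adjusted p = 0.0703). H4C8 had 9.98, 8.902 and 8.68 CPM with siBRD8-6 and 5.14, 6.33 and 4.59 CPM with siBRD8-36. It had 6.33, 4.84 and 5.95 CPM with siTIP60-2 and 6.17, 5.36 and 5.09 CPM with siTIP60-11, against 6.73, 6.18 and 5.83 CPM in the control libraries. Only siBRD8-6 stood clear of the control, above it, and H4C8 was not called for either target.

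H2BC8 had 4.33, 3.89 and 4.804 CPM with siBRD8-6 and 4.56, 5.77 and 3.99 CPM with siBRD8-36. It had 4.95, 4.51 and 3.53 CPM with siTIP60-2 and 5.95, 7.18 and 5.77 CPM with siTIP60-11, against 3.98, 4.78 and 3.74 CPM in the control libraries. The siTIP60-11 libraries lay above the control, the other groups overlapped the control, and neither target was called. H2BC15 had 2.28, 2.45 and 2.28 CPM with siBRD8-6 and 2.23, 1.78 and 1.99 CPM with siBRD8-36. It had 2.88, 2.703 and 2.42 CPM with siTIP60-2 and 1.49, 2.04 and 1.86 CPM with siTIP60-11, against 2.06, 1.83 and 2.99 CPM in the control libraries. The groups overlapped throughout, with fold changes of -0.08 ± 0.24 for BRD8 and -0.06 ± 0.24 for TIP60. H3C10 had 3.85, 6.79 and 4.97 CPM with siBRD8-6 and 2.62, 3.66 and 3.49 CPM with siBRD8-36. It had 4.49, 2.93 and 4.96 CPM with siTIP60-2 and 4.68, 3.65 and 4.99 CPM with siTIP60-11, against 4.12, 4.498 and 4.63 CPM in the control libraries. siBRD8-36 lay below the control and the rest overlapped it. H3C6 had 2.76, 2.45 and 2.02 CPM with siBRD8-6 and 2.62, 0.555 and 1.097 CPM with siBRD8-36. It had 1.73, 1.91 and 2.76 CPM with siTIP60-2 and 2.02, 2.47 and 1.86 CPM with siTIP60-11, against 1.24, 0.562 and 1.79 CPM in the control libraries. All siBRD8-6 and all siTIP60-11 libraries lay above the control while the other 2 siRNAs overlapped it, and H3C6 was not called for either target (0.64 ± 0.39 for BRD8 and 0.83 ± 0.38 for TIP60).

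The other genes that fell in SW480 were low in the control, with group means of 1.18 to 5.78 CPM, and stood at 0.242 to 2.14 CPM with siBRD8-6 and at 0.0656 to 1.44 CPM with siBRD8-36. H3C2, an H3 gene that reached the filter's limit throughout the control group only, had the lowest fold change: its expected counts were 9, 2 and 5 with siBRD8-6 and 2, 1 and 1 with siBRD8-36. They were 7, 12 and 12 with siTIP60-2 and 9, 3 and 3 with siTIP60-11, against 25, 26 and 13 in the control. No siBRD8 or siTIP60 library reached the lowest control level in CPM (-3.38 ± 0.42, edgeR adjusted p = 0.000144 for BRD8 and -1.94 ± 0.36, edgeR adjusted p = 0.0138 for TIP60). The linker genes H1-5 (-2.95 ± 0.50, edgeR adjusted p = 0.00334) and H1-4 (-2.79 ± 0.42, edgeR adjusted p = 0.00125) fell with BRD8 depletion and did not pass the test with TIP60 depletion (-1.67 and -1.12). Among H3 genes, H3C3 changed by -3.05 ± 0.53, edgeR adjusted p = 0.00319 and H3C8 by -2.01 ± 0.35, edgeR adjusted p = 0.00677. Among H4 genes, H4C4 changed by -2.69 ± 0.47, edgeR adjusted p = 0.000972, H4C9 by -2.58 ± 0.52, H4C2 by -2.22 ± 0.50 and H4C3 by -2.16 ± 0.53. Of the H2A genes, H2AC13 changed by -2.02 ± 0.39, edgeR adjusted p = 0.00379, H2AC20 by -1.43 ± 0.32 and H2AC8 by -0.99 ± 0.22, and H2BC6 changed by -1.36 ± 0.35. Leaving out 1 library ended 7 of these calls, of genes with few counts. H4C3 was lost without siControl replicate 1 (-1.74) or 3 (-2.22) or siBRD8-6 replicate 3 (-1.94), and H4C2 without siControl replicate 1 (-1.84) or siBRD8-6 replicate 3 (-1.95). H3C8 (-1.91) and H4C9 (-2.46) were lost without siBRD8-6 replicate 3, and H2AC20 without siBRD8-6 replicate 2 (-1.28). H2BC6 was lost without siControl replicate 3 (-1.17), siBRD8-6 replicate 1 (-1.22) or siBRD8-36 replicate 1 (-1.24). H2AC8 was lost without siControl replicate 1 or 2 or any 1 of the siBRD8-6 libraries (-1.02 to -0.90). The TIP60 call of H3C2 was lost without siControl replicate 1 (-1.84) or 2 (-1.78) or siTIP60-2 replicate 1 (-1.84). Limma on log2(TPM + 1) also ended the BRD8 calls of H4C3 (-1.28), H3C8 (-0.79) and H2AC8 (-0.61) and the TIP60 call of H3C2 (-1.37). DESeq2 ended the BRD8 calls of H4C3 (-2.19), H2BC6 (-1.37) and H2AC8 (-1.0) and the TIP60 call of H3C2 (-1.97), and H2AC8 was also lost with no filter (-0.98).

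Between the siRNAs of a target in SW480, siBRD8-6 was higher than siBRD8-36 in 9 genes and lower in 0, where 52.8% of all genes differed. H1-2 (1.10 ± 0.11, edgeR adjusted p = 2.75e-09) and H2AC18 (0.87 ± 0.14, edgeR adjusted p = 1.4e-05) were among them. siTIP60-2 was lower than siTIP60-11 in 8 genes and higher in 2, where 45.3% of all genes differed; H2AC18 differed by -1.16 ± 0.15, edgeR adjusted p = 7.99e-07 and H1-2 by -0.56 ± 0.09, edgeR adjusted p = 2.03e-05. H1-2, H2AC11, H2AC18, H2BC12 and H2BC21 were lower with siTIP60-2 than with siTIP60-11 in both lines. Set directly against TIP60 depletion, BRD8 depletion was lower in 23 of the 38 genes and higher in 3, where 30.2% and 29.7% of all genes were. H1-2 was lower, at -1.02 ± 0.07, edgeR adjusted p = 1.73e-12 and H2BC21 lower, at -0.66 ± 0.07, edgeR adjusted p = 7.39e-09. H2AC6 (0.21 ± 0.05, edgeR adjusted p = 0.000261), H2BC12 and H4C8 were higher with BRD8 depletion.

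The responses of the lines to BRD8 depletion differed in 18 of 42 genes in a fit of all 30 libraries, all 18 higher in HCT116 than in SW480 on this difference of log2 fold changes. Of all genes, 12.5% differed in that direction and 21.9% in the other. Entry of the 42 leaned on SW480 libraries, so counts over them describe the tested genes only. For genes with counts in both lines, the difference was 2.43 ± 0.15, edgeR adjusted p = 1.98e-14 in H1-2, 2.43 ± 0.25, edgeR adjusted p = 1.97e-09 in H2AC18, 1.63 ± 0.12, edgeR adjusted p = 1.23e-12 in H2AC6, 1.46 ± 0.19, edgeR adjusted p = 1.71e-07 in H2BC5 and 0.99 ± 0.17, edgeR adjusted p = 2.14e-05 in H2BC12. H1-2 was called higher in HCT116 and lower in SW480 with BRD8 depletion. For TIP60 depletion 7 of 42 genes differed, all higher in HCT116, where 13.1% of all genes differed in that direction and 18% in the other. H2BC6 (2.03 ± 0.53, edgeR adjusted p = 0.00301), H2AC18 (1.39 ± 0.27, edgeR adjusted p = 0.000127) and H2AC6 (1.13 ± 0.13, edgeR adjusted p = 1.19e-08) were among them. H3C2 was also called for TIP60, at 2.62 ± 0.97, but held at most 5 counts in any HCT116 library. With limma on log2(TPM + 1) 14 and not 7 genes differed for TIP60. In HCT116, 15 of the 65 genes were at 0 in all 15 libraries, where 3 counts amount to 0.159 to 0.226 CPM. Of those, H1-5, H2AC8, H2BC9 and H3C8 were tested in SW480, with control means of 1.44 to 5.50 CPM.

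Copies of near-identical sequence shared reads in a way that varied between replicates. H3C14 and H3C15 had identical values in all 30 libraries, so they give 1 measurement and not 2. The share of H4C14 in the sum of H4C14 and H4C15 ranged from 18.2% to 98.9% over the other groups and HCT116, against 75.0% to 100.0% over the SW480 control libraries. The sum was steadier than either gene. In SW480 it was 16.8 ± 1.57 CPM with siBRD8-6 and 10.9 ± 2.11 CPM with siBRD8-36. It was 19.96 ± 0.85 CPM with siTIP60-2 and 23.1 ± 2.13 CPM with siTIP60-11, against 15 ± 0.345 CPM in the control (SD, n = 3 each). All siTIP60 libraries were above the control libraries in the sum, and tested as 1 gene it rose with TIP60 depletion in SW480 (0.52 ± 0.11, edgeR adjusted p = 0.0124), though neither copy was called alone. Alone, H4C14 had 6.01, 5.12 and 11.1 CPM with siBRD8-6 and 10.6, 4.66 and 8.58 CPM with siBRD8-36. It had 17.5, 12.2 and 20.7 CPM with siTIP60-2 and 11.5, 16.9 and 19.95 CPM with siTIP60-11, against 11.1, 14.8 and 15.4 CPM in the control libraries. H4C15 had 9.49, 11.2 and 7.42 CPM with siBRD8-6 and 2.42, 6.33 and 0.199 CPM with siBRD8-36. It had 1.96, 7.32 and 0.22 CPM with siTIP60-2 and 13.9, 5.68 and 1.27 CPM with siTIP60-11, against 3.71, 0 and 0 CPM in the control libraries. Low values of one copy met high values of the other. The summed pair H2AC18 and H2AC19 rose with BRD8 depletion in HCT116 (2.44 ± 0.15, edgeR adjusted p = 9.8e-09), as H2AC18 alone did. The sums of copies were chosen as an alternative after seeing the data.

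**Figure D5:**
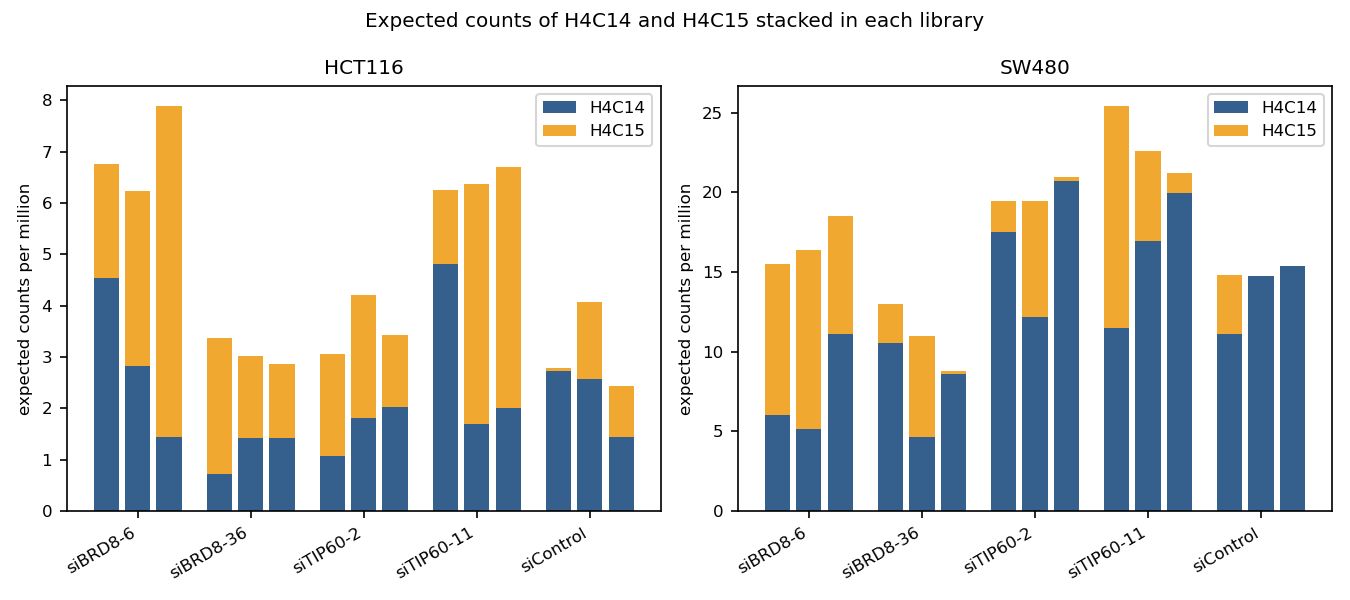
Expected counts as CPM of H4C14 (blue) and H4C15 (orange) stacked in each library, by group, for HCT116 (left) and SW480 (right). The split between the copies changes from library to library within a group, while the height of the stack changes less; in SW480 the controls stand at 14.8 to 15.4 and the siTIP60 libraries at 19.5 to 25.4.

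Another feature shared by these genes is position. By the GENCODE gene starts, 10 pairs of an H2A and an H2B gene stand head to head. Their starts lie 219 to 331 bases apart, so each pair has 1 promoter region between its genes. By the RefSeq starts, H2AC15 and H2BC15 also stand head to head, with overlapping promoter windows. The GENCODE bounds of H2BC15 span H2AC15, and that pair is not among the 10. H2AC15 was tested in neither line. Both partners were tested in 3 pairs in HCT116 and 4 in SW480. Partners did not always move together. In HCT116 with BRD8 depletion, H2BC4 (1.78 ± 0.28) and H2AC6 (2.43 ± 0.11) both rose, whereas with TIP60 depletion H2AC6 rose and H2BC4 did not pass the test (-0.12 ± 0.32). H2BC11 rose with BRD8 depletion while its partner H2AC11 was not called. In SW480 with BRD8 depletion, H2AC20 fell (-1.43 ± 0.32) and its partner H2BC21 was not called (0.22 ± 0.10). With TIP60 depletion H2BC21 rose (0.88 ± 0.10) and H2AC20 was not called (-0.53 ± 0.30). H2AC8 fell with BRD8 depletion while H2BC8 was not called (0.13 ± 0.18). The difference between partners was not tested.

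For the lists that follow, the shares of all genes called were those given above: 12.2% higher and 12.2% lower for BRD8 and 13.7% and 14.1% for TIP60 in HCT116, and 12.9% and 14% for BRD8 and 11.5% and 12.1% for TIP60 in SW480. S-phase genes moved beside these results. Of 13 tested, BRD8 depletion lowered 10 in HCT116 (median -1.0) and 11 in SW480 (median -1.02) and raised none, whereas TIP60 depletion raised 1 and lowered 1 in each line, with medians of -0.01 and 0.09. MCM2, a subunit of the replicative helicase, changed by -1.93 ± 0.04, edgeR adjusted p = 2.57e-07 with BRD8 depletion in HCT116, and CDC6, which loads that helicase, by -1.75 ± 0.06, edgeR adjusted p = 3.23e-12 in SW480. The 11 histone genes that rose in HCT116 and the 17 that fell in SW480 thus did so beside lower S-phase genes in both lines. The part of the cell cycle in the histone results was not tested.

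Of 22 genes that act in making or processing histone mRNA, BRD8 depletion raised 1 and lowered 7 in HCT116, and raised 2 and lowered 7 in SW480. TIP60 depletion raised 3 and lowered 3 in HCT116, and raised 4 and lowered 2 in SW480. SLBP, which binds the stem-loop shown above, fell with BRD8 depletion in HCT116 (-0.62 ± 0.06, edgeR adjusted p = 0.000152) and in SW480 (-0.53 ± 0.06, edgeR adjusted p = 0.000153). NPAT, the coactivator of histone transcription, fell with it in HCT116 (-0.82 ± 0.08, edgeR adjusted p = 0.000229) and in SW480 (-0.34 ± 0.09, edgeR adjusted p = 0.0187). CASP8AP2, a component of histone locus bodies, fell in HCT116 (-0.86 ± 0.09, edgeR adjusted p = 4.76e-05) and was not called in SW480 (-0.31). With TIP60 depletion none of these 3 was called in either line: SLBP was at -0.12 and -0.11 in HCT116 and SW480, and NPAT at -0.16 and 0.05. E2F1 fell with BRD8 depletion in both lines (-0.73 ± 0.08, edgeR adjusted p = 0.0421 in HCT116 and -0.80 ± 0.09, edgeR adjusted p = 0.000481 in SW480) and rose with TIP60 depletion in HCT116 (0.72 ± 0.08, edgeR adjusted p = 0.000565). ATF1 fell in all 4 comparisons, from -0.42 with TIP60 depletion to -1.03 with BRD8 depletion, both in SW480.

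Histone genes outside the S-phase set were set beside these. Of 12 replication-independent variant genes tested in HCT116 and 11 in SW480, BRD8 depletion lowered 5 in HCT116 and 7 in SW480 and raised 0 and 1. TIP60 depletion lowered 6 in HCT116 and 1 in SW480 and raised 0. H2AZ2, 1 of the genes for H2A.Z, the variant that the complex deposits, changed by -1.27 in HCT116 and -0.96 in SW480 with BRD8 depletion, and -1.01 in HCT116 with TIP60 depletion. Of 23 histone chaperone genes, BRD8 depletion lowered 8 and raised 3 in HCT116, and lowered 5 and raised 4 in SW480. TIP60 depletion lowered 3 and raised 8 in HCT116, and lowered 2 and raised 5 in SW480. Several of these counts for machinery and chaperone genes are near the shares of all genes called, and nothing particular to the lists is read from them. HJURP, the chaperone of the centromeric histone CENPA, fell with BRD8 depletion, at -1.36 in HCT116 and -1.34 in SW480.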

How the data were processed

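Per the labels' protocols, 100 ng of total RNA went into each directional RNA-seq library, sequenced as single reads of 60 bases. Not given in the sources used here are the annotation release, the strand setting, and whether poly(A) RNA was selected or ribosomal RNA removed. The submitters' processing notes name hg38 and the tools Trimmomatic 0.33, STAR 2.7.3a and RSEM 1.3.3. The authors deposited, per the file headers, an expected count for each gene and library, an estimate that splits reads shared between genes. TPM values were deposited too, per the file headers. Total depth was 13.4 to 18.6 M counts in HCT116 and 7.07 to 11.7 M in SW480, so a count of 3 is 0.159 to 0.226 CPM in HCT116 and 0.253 to 0.448 CPM in SW480, for counting error only.

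Expected counts were rounded to whole numbers. Each line's 15 libraries were fitted with edgeR 4.0.16 in R 4.3.3 (quasi-likelihood test, robust, TMM, filterByExpr), and the lines were compared in a fit of all 30. Adjusted p-values are Benjamini-Hochberg over all genes tested, with a threshold of 0.05, and an SE was taken as the absolute log2 fold change over the root of F. The scripts were tested on simulated data. Alternatives were DESeq2 1.42.0, DESeq2 size factors in edgeR, no filter, a filter of 1 CPM in 3 libraries, limma 3.58.1 on log2(TPM + 1), a replicate block, leaving out each library, and, added after seeing the data, sums of near-identical copies. The replicate numbers were not used as pairs in the main fits, and same-numbered replicates showed at most weak correlation. The labels do not say that replicates were separate cultures, so a p-value here reflects variation among libraries that could be purely technical.

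The histone genes and all lists were chosen with earlier results of these data known. Genes with a mean expected count of at least 50 in any of the 10 groups are given in every library, 15 in all, and the others by range and counts. Of each related list, at most 4 called genes with the largest change per target and line, and SLBP, NPAT and CASP8AP2 always, could be named. Stem-loops and gene models came from GENCODE 29, whose genome is GRCh38, and promoters from RefSeq on GRCh38.p14.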

Additional observations from a re-analysis of the deposited data

Results flagged for a closer look

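These differences between the lines are log2 fold changes in HCT116 minus those in SW480, each tested as an interaction over all 30 libraries (edgeR adjusted p under 0.05). For BRD8 depletion they were 2.43 in H1-2, 1.63 in H2AC6, 2.43 in H2AC18, 1.46 in H2BC5, 0.99 in H2BC12, 3.46 in H2BC11, 2.14 in H2BC4, 4.19 in H2BC6, 1.79 in H2BC15, 2.44 in H2BC18 and 1.18 in H3C10. They were also 2.16 in H1-4, 4.95 in H2AC13, 3.25 in H3C2, 3.28 in H3C13, 2.75 in H3C14, 2.75 in H3C15, the same measurement as H3C14, and 2.08 in H4C5. The genes of that second group held at most 15 expected counts in any HCT116 library and were not tested within that line, so their differences rest on the SW480 libraries and a few HCT116 counts. For TIP60 depletion the differences were 0.74 in H1-2, 1.13 in H2AC6, 1.39 in H2AC18, 0.76 in H2BC5, 2.03 in H2BC6, 0.89 in H3C10 and 2.62 in H3C2. All 25 were higher in HCT116. H2AC6 and H2BC5 were called higher in both lines with both targets, so there the difference is one of size, while H1-2 and H2BC6 were called higher in HCT116 and lower in SW480 with BRD8 depletion.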

How the results depend on the processing

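Counts of called histone genes kept their direction under every alternative, and no call changed sign. Of 41 calls for a target and a line, 29 held under all alternatives that gave a value: 10 of 11 for BRD8 and 3 of 4 for TIP60 in HCT116, and 12 of 20 and 4 of 6 in SW480. Beyond 1.5 times, the count moved in these cases. Genes lowered by TIP60 depletion in SW480 numbered 1 with DESeq2 and 1 with limma on TPM, against 2. Genes that differed between siTIP60-2 and siTIP60-11 in SW480 numbered 6 with DESeq2, against 10. Genes whose response to TIP60 depletion differed between the lines numbered 14 with limma on TPM, against 7. No other count moved by over 1.5 times, apart from those with a library left out, below.

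Leaving out 1 library at a time gave 11 to 11 genes raised by BRD8 depletion in HCT116 and 3 to 3 in SW480, and 3 to 5 and 4 to 4 raised by TIP60 depletion. Genes lowered in SW480 numbered 13 to 19 for BRD8 and 1 to 3 for TIP60, and in HCT116 they numbered 0 throughout. Between BRD8 and TIP60 depletion, 12 to 12 genes differed in HCT116 and 22 to 29 in SW480. Between the lines, 15 to 20 differed in response to BRD8 and 6 to 9 to TIP60, and 39 to 41 in the control. Between siRNAs, 8 to 9 and 7 to 10 differed for BRD8 and 5 to 7 and 8 to 14 for TIP60, in HCT116 and SW480 in turn.

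Limma on TPM, which moved the median of all genes by up to 0.23 in SW480, ended 8 of the 41 calls, and DESeq2 ended 4.

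Same-numbered replicates deviated together at most weakly (correlations of -0.06 to 0.14 in HCT116 and -0.16 to 0.17 in SW480, over 30 pairs each). Their median was 0.043 in HCT116, against -0.020 for pairs with other numbers, and -0.006 in SW480, against -0.004. Weak pairing in HCT116 is thus not excluded. With the replicate number as a block, 11 genes were raised by BRD8 depletion in HCT116 and 18 lowered in SW480, and 4 were raised by TIP60 depletion in each line, with 2 lowered in SW480. The block moved no count by over 1.5 times.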
